A study of Mus musculus with 10 samples.

Results

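The genes described here carry uridine into the cell, phosphorylate it, split it, or make pyrimidine nucleotides from simple precursors. They are Slc29a1, Slc29a2, Uck1, Uck2, Uckl1, Upp1, Cad, Dhodh, Umps and Ctps, chosen by symbol from their roles, with earlier results of these data known. All 10 were found by their symbol, each in a single entry, among the 17053 genes of the deposited table. All 10 also passed the filter on low counts that left 12218 genes for testing.

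Cells obtain uridine nucleotides along 2 routes. In the salvage route, equilibrative nucleoside transporters let uridine cross the plasma membrane and uridine-cytidine kinases add its initial phosphate, which traps it inside the cell. In the de novo route, the pyrimidine ring is built step by step from glutamine, bicarbonate and aspartate, and UTP is finally aminated to CTP. 4-thiouridine (4sU) is a uridine analogue with a sulfur atom in place of an oxygen on its base. It enters RNA only after uptake and phosphorylation, so the salvage genes act on the labelling agent itself.

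RNA came from NIH-3T3 cells, an established mouse fibroblast line labelled as wild type, with 2 libraries (A and B) in each of 5 groups. Cells given 800 µM 4sU for 2 h supplied 3 groups. In the 4sU TUC group the RNA was treated with osmium tetroxide (OsO4) in an ammonium solution, in the 4sU SLAM group with iodoacetamide, and in the 4sU unconverted group with neither. Both chemistries make incorporated 4sU read as cytidine in sequencing. The uridine group received 800 µM uridine for 2 h and no conversion, and the untreated group received neither nucleoside nor conversion.

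Libraries held 27094222 to 33785682 gene counts. The 10 fibroblast markers were all above 1 CPM, a TMM-scaled count relative to the library total, and summed to 17476 to 25768 CPM, whereas the summed macrophage, endothelial and epithelial markers reached 16.6, 1.13 and 0.327 CPM at most. Nothing in the labels says that A and B were separate cultures, so p-values measure the spread between these libraries, which may be technical. The A minus B differences of one group correlated across genes with those of every other group, and results with the letter as a block (a term for A or B in the model) are therefore given beside those without it. All levels are relative to the RNA sequenced, and fewer cells and less RNA per cell cannot be told apart in bulk samples.

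How much of each transcript had been made during the 2 h of labelling varied widely across the pathway. The new-to-total RNA ratio (NTR) is the estimated fraction of a gene's RNA that was made while 4sU was present. As SLAM means it ran from 0.919 in Slc29a2 to 0.283 in Slc29a1, both equilibrative transporters. Slc29a1 shared the low end with Cad, Upp1 and Uckl1, and which of the 4 was lowest varied with the library.

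Slc29a2 encodes ENT2, an equilibrative transporter of nucleosides and nucleobases. Its NTR was 0.885 and 0.949 in 4sU TUC A and B, and 0.919 and 0.919 in 4sU SLAM A and B. Slc29a1 encodes ENT1, the widely expressed equilibrative nucleoside transporter. Its NTR was 0.277 and 0.335 in 4sU TUC A and B, and 0.269 and 0.296 in 4sU SLAM A and B. Slc29a2 exceeded Slc29a1 by 0.608 to 0.650 within each of the 4 libraries. Among the 10202 genes with a mean of 100 or more counts in the converted libraries, the SLAM mean of Slc29a2 stood at percentile 83.0 and that of Slc29a1 at percentile 21.2.

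The uridine-cytidine kinases also differed from one another. Uck1 had an NTR of 0.775 and 0.841 in 4sU TUC and 0.784 and 0.833 in 4sU SLAM. Uck2, the isoform with the higher activity on uridine and its analogues, had an NTR of 0.716 and 0.783 in 4sU TUC and 0.684 and 0.772 in 4sU SLAM. Uck1 was above Uck2 by 0.0581 to 0.0996 in every converted library, with the 90% intervals apart in all 4. Uckl1, a uridine-cytidine kinase-like gene, had a much lower NTR of 0.296 and 0.429 in 4sU TUC and 0.224 and 0.381 in 4sU SLAM. Uckl1 was also the member with the widest spread between the letters. Upp1 encodes uridine phosphorylase, which splits uridine into uracil and ribose-1-phosphate, and its NTR was 0.235 and 0.350 in 4sU TUC and 0.271 and 0.335 in 4sU SLAM. Its bounds were the widest of the group, for example 0.168 to 0.322 in 4sU TUC A, at 82 to 137.5 counts per library.

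The 4 members of the de novo route and CTP synthesis each had an NTR of their own. Cad encodes the trifunctional enzyme of the opening 3 steps, and its NTR was 0.271 and 0.323 in 4sU TUC and 0.272 and 0.311 in 4sU SLAM. Dhodh encodes the mitochondrial dihydroorotate dehydrogenase that follows, with an NTR of 0.426 and 0.509 in 4sU TUC and 0.392 and 0.535 in 4sU SLAM. Umps encodes UMP synthase, which turns orotate into UMP, with an NTR of 0.530 and 0.641 in 4sU TUC and 0.536 and 0.610 in 4sU SLAM. Ctps encodes CTP synthase, which makes CTP from UTP, with an NTR of 0.713 and 0.781 in 4sU TUC and 0.679 and 0.763 in 4sU SLAM. Within every converted library the order was Cad, Dhodh, Umps and Ctps from low to high, and the 90% intervals of these 4 genes did not overlap. Ctps lay 0.407 to 0.459 above Cad. This order describes 4 genes and was not tested. It does not extend to the kinases that act between UMP and UTP, since Cmpk1 (UMP-CMP kinase) had a SLAM NTR of 0.241, Nme1 0.222 and Nme2 0.136, all below that of Umps.

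**Figure D1:**
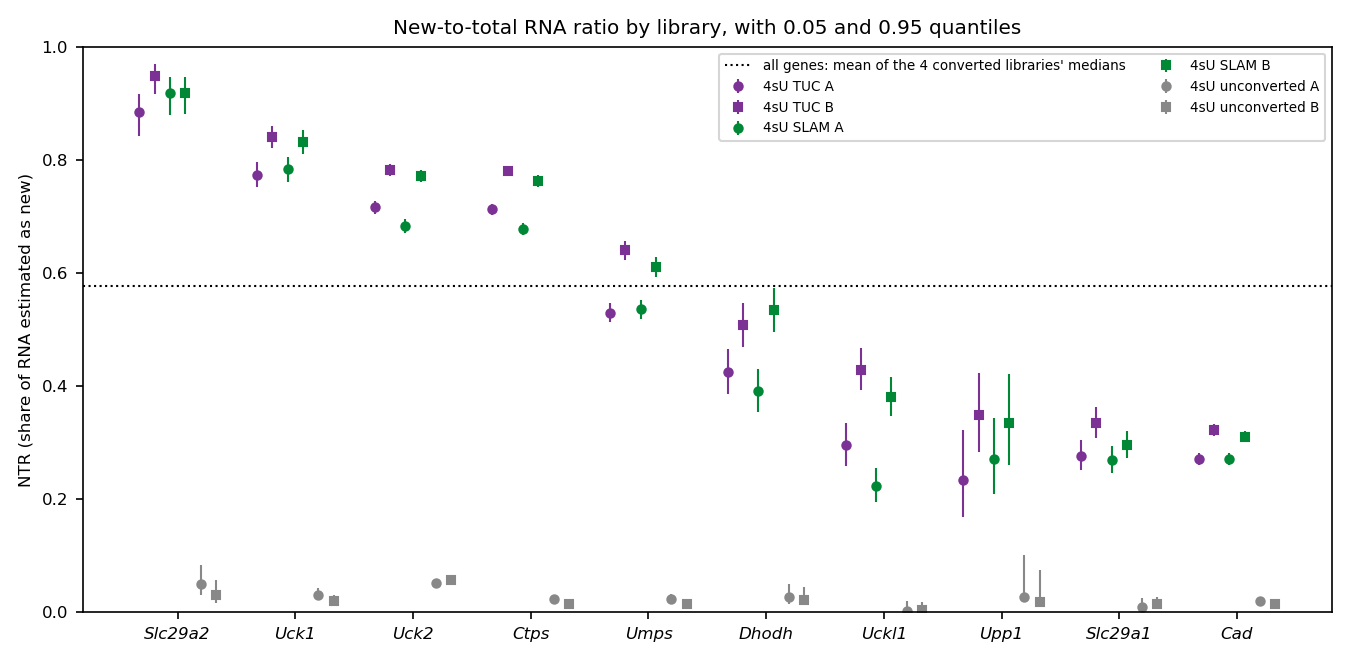
NTR (vertical axis, fraction) of each gene in the 2 4sU TUC (purple), 2 4sU SLAM (green) and 2 4sU unconverted (grey) libraries, with circles for A, squares for B and lines for the 0.05 to 0.95 quantiles. The dotted line is the mean of the 4 converted libraries' medians over all genes (0.577), with 4 genes above it in all 4 converted libraries and Dhodh, Uckl1, Upp1, Slc29a1 and Cad below it in all 4.

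Of the 45 pairs that the 10 genes form, 38 had 90% intervals that were apart in all 4 converted libraries. The other 7 were Uck2 with Ctps and the 6 pairs among Uckl1, Upp1, Slc29a1 and Cad. The members thus fell in the order Slc29a2, Uck1, then Uck2 and Ctps, then Umps, Dhodh and the group of 4 at the low end. The members' median SLAM NTR was 0.518, against 0.566 for all genes and 0.359 for the 38 other pyrimidine genes with an NTR. No test of these medians was made.

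Under the assumption of constant synthesis and decay over the 2 h, NTR converts to a transcript half-life. For Slc29a2 it came to 0.466 to 0.640 h over the 4 converted libraries, and for Uck1 to 0.753 to 0.931 h. Uck2 gave 0.907 to 1.20 h and Ctps 0.912 to 1.22 h. Umps gave 1.35 to 1.83 h and Dhodh 1.81 to 2.79 h. The 4 slow genes overlapped, at 2.47 to 5.48 h for Uckl1, 3.22 to 5.18 h for Upp1, 3.39 to 4.42 h for Slc29a1 and 3.56 to 4.38 h for Cad. The values depend on the assumption, since a gene whose synthesis changed during labelling would have another half-life at the same NTR.

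The NTR of all 10 genes was higher in B than in A under both chemistries. Among all 10202 genes, 85.1% were higher in B in 4sU TUC and 84.8% in 4sU SLAM, with medians of 0.544 and 0.630 in 4sU TUC A and B and 0.523 and 0.611 in 4sU SLAM A and B. The members' difference between letters was therefore shared by most genes.

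The 2 chemistries gave no detectable difference in the members' NTR. In the limma test on the log2 odds of NTR, 0 of 10 members were called (adjusted p under 0.05 over all genes tested), with and without the letter as a block, against a background of 0% of all genes. Before adjustment, 187 of 10202 genes had a p under 0.05 without the block and 929 with it, and 0 were members in both fits. The largest member difference was that of Uckl1, whose NTR was 0.0601 higher in 4sU TUC than in 4sU SLAM. On the log2 odds scale it differed by 0.42 ± 0.51 without the block (SE, n = 2 libraries each, limma adjusted p = 1). With the block it differed by 0.42 ± 0.112 (limma adjusted p = 0.527). For the other 9 members the mean NTR differed by -0.0105 (Upp1) to 0.0264 (Ctps). Since the 95% interval for Slc29a2 ran from -1.12 to 1.28 log2 odds without the block, a sizeable difference in that gene was not detectable with 2 libraries each. With the block its interval ran from -1.53 to 1.69. The blocked intervals of other members were narrower, for example -0.27 to 0.34 for Cad, -0.18 to 0.49 for Uck2 and -0.64 to 0.46 for Upp1.

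Libraries without conversion gave the background. Over the 4sU unconverted and uridine libraries, the members' NTR was 0.0022 to 0.0729. Uck2 had 0.0517 and 0.0576 in 4sU unconverted A and B, and 0.058 and 0.044 in uridine A and B. Both groups of Uck2 values thus lay above those of most members, in cells with and without 4sU. Uckl1, at 0.0022 and 0.0050 in 4sU unconverted and 0.0207 and 0.0219 in uridine, was lowest in the 4sU libraries. The lowest converted value of any member, 0.224 for Uckl1 in 4sU SLAM A, was above every background value.

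The members also differed in abundance. Per kilobase of the deposited gene length and averaged over the 10 libraries, Ctps was the most abundant at 88.9 CPM per kb, percentile 93.8 of the tested genes. Uck2 followed at 45.9 CPM per kb, Cad at 30.2, Umps at 25.1 and Uck1 at 23.0. Slc29a1 reached 12.03 CPM per kb and Uckl1 9.17, whereas Slc29a2 at 4.78 and Dhodh at 4.29 were low. Upp1 was the least abundant at 2.56 CPM per kb, percentile 26.1. Of the paralogues, ENT1 mRNA thus exceeded ENT2 mRNA, and Uck2 exceeded Uck1 and Uckl1, on this scale.

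Part of the spread between libraries followed the letter. Umps had 97.7 and 81.3 CPM in 4sU TUC A and B, 96.6 and 75.8 in 4sU SLAM, 99.1 and 79.1 in 4sU unconverted, 97.8 and 76.9 in uridine, and 94.1 and 74.8 in untreated cells. All 5 A libraries of Umps were thus above all 5 B libraries, whatever the treatment. Slc29a1, Uck1, Uck2 and Ctps were also higher in A than in B in each of the 5 groups, for Slc29a1 by as little as 26.06 and 26.04 CPM in 4sU unconverted. Dhodh stayed between 14.0 and 18.7 CPM and Uckl1 between 15.0 and 19.8 CPM over the 10 libraries. Uck2 stayed between 199.8 and 235.9 CPM, and Upp1 between 2.64 and 4.72 CPM.

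**Figure D2:**
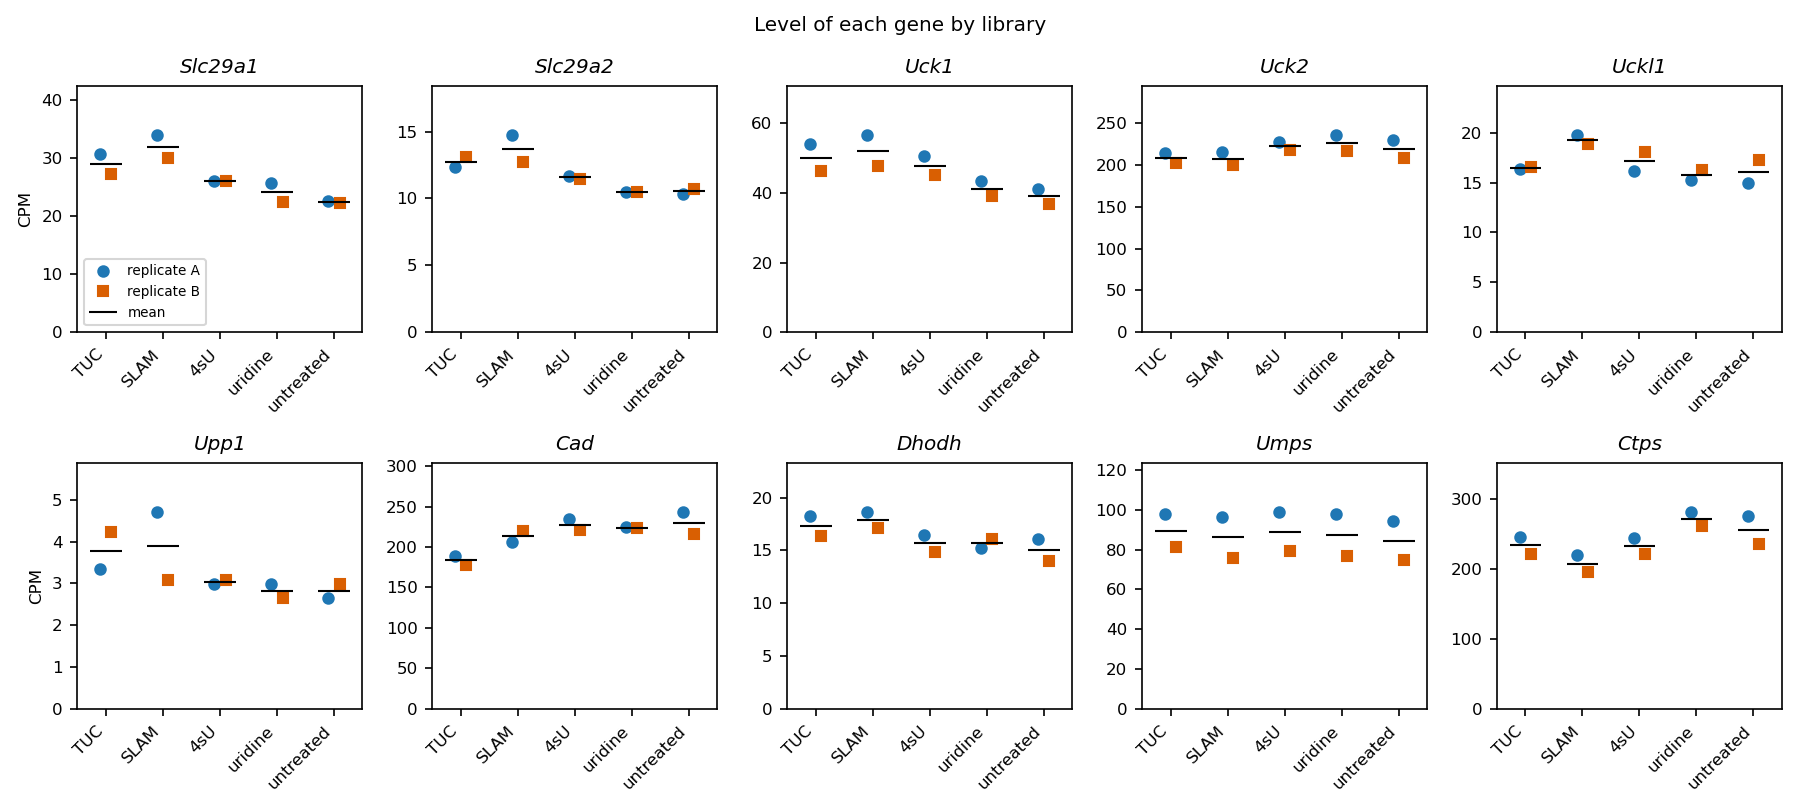
Level (CPM, vertical axes from 0) of each gene in the 10 libraries, by group, with circles for A, squares for B and a bar for the mean of 2. Slc29a1 runs from 22.2 CPM in untreated B to 33.9 CPM in 4sU SLAM A, and Cad from 178 CPM in 4sU TUC B to 244 CPM in untreated A.

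Across the 6 comparisons of counts, no member had an adjusted p under 0.05 by edgeR (quasi-likelihood) when the block was left out. This covers 60 tests, of which 2 had an unadjusted p under 0.05, and the lowest adjusted p was 0.216. With the letter as a block, 10 of the 60 passed, for Slc29a1, Slc29a2, Uck1, Ctps and Cad. Of all genes, the blocked fit called 0.00818% for uridine against untreated and from 19.7% to 41.6% in each other comparison. The members' calls were thus no more frequent than such shares would give. Uck2, Uckl1, Upp1, Dhodh and Umps passed in no comparison in either fit. With all libraries, the largest fitted change was 0.36 on the log2 scale (Upp1, 4sU SLAM against 4sU unconverted), and without 4sU SLAM B the blocked value for Upp1 in that comparison was 0.70. Comparisons with a shared group are not independent, because the same libraries enter each.

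The effect of uridine itself was examined in the uridine and untreated groups. No member was called in either fit, at a background of 0% of genes without the block and 0.00818% with it. By edgeR, 46 of 12218 genes had an unadjusted p under 0.05 without the block and 380 with it, and 0 were members in either fit. The fit without the block counts the A to B difference as spread, so its low count is not a measure of how little uridine did. Its common dispersion was 0.0187, against 0.00195 with the block. Slc29a1 had 25.7 and 22.4 CPM in uridine A and B, against 22.5 and 22.2 CPM in untreated A and B. Ctps had 282 and 262 CPM in uridine cells, against 275 and 236 CPM in untreated cells, and the groups overlapped. The log2 fold changes of the 10 genes lay between -0.04 (Cad) and 0.10 (Slc29a1), and in all 10 the groups overlapped, while 15.1% of all genes had groups that did not. The 95% intervals bounded the change at -0.18 to 0.36 for Ctps and at -0.53 to 0.53 for the rarer Upp1 without the block.

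4sU was then set against untreated cells in the unconverted libraries. Without the block, 0 members were called, at a background of 0.164% of all genes and 1102 genes with a p under 0.05 before adjustment. With the block, Uck1 and Slc29a1 were higher and no member was lower, at a background of 6.97% of genes higher and 12.9% lower. Uck1 had 50.7 and 45.1 CPM in 4sU unconverted A and B, against 41.1 and 36.9 CPM in untreated A and B. Both 4sU libraries were above both untreated ones. The log2 fold change was 0.30 ± 0.131 without the block (SE, edgeR quasi-likelihood adjusted p = 0.56) and 0.30 ± 0.0605 with it (adjusted p = 0.00268). The call was lost without 4sU unconverted B, at an adjusted p of 0.058 with the block.

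Slc29a1 had 26.1 and 26.0 CPM in 4sU unconverted A and B, against 22.5 and 22.2 CPM in untreated A and B. Its log2 fold change was 0.22 ± 0.111 without the block (edgeR adjusted p = 0.647) and 0.22 ± 0.0742 with it (adjusted p = 0.0449). Scaled by library totals the blocked adjusted p was 0.0757, and with DESeq2 0.0885. The call held only when untreated B was left out (adjusted p = 0.0483), and the adjusted p was 0.344 without untreated A, 0.0864 without 4sU unconverted A and 0.419 without 4sU unconverted B. Slc29a2 had 11.7 and 11.5 CPM in 4sU cells, against 10.3 and 10.7 CPM in untreated cells, and was not called (edgeR adjusted p = 0.317 with the block). In 4 members (Slc29a1, Slc29a2, Uck1 and Upp1) both 4sU libraries were above both untreated ones and in 0 both were below. The groups of 37.4% of all genes did not overlap, with 17.3% higher and 20.1% lower. Upp1 was separated only narrowly, at 2.977 CPM in 4sU unconverted A against 2.976 CPM in untreated B. Uck2 and Cad were nearly level, with log2 fold changes of 0.02 ± 0.0942 and -0.01 ± 0.0932.

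The annotation places Pomt1, a protein O-mannosyltransferase gene, over part of Uck1, and the strand setting of the counting is not given. Pomt1 had a log2 fold change of -0.11 ± 0.0766 with the block in the same comparison (edgeR adjusted p = 0.32) and a SLAM NTR of 0.202, where Uck1 had 0.808. The part that shared reads have in the Uck1 values was not tested.

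4sU and uridine, which differ by the sulfur atom, were compared at the same dose and time. Of the 10 members, 0 were called without the block, at a background of 0.254% of all genes and 1237 genes with a p under 0.05 before adjustment. With the block, Uck1 was higher and Ctps lower after 4sU than after uridine, at a background of 6.48% of genes higher and 13.3% lower. Uck1 had 50.7 and 45.1 CPM in 4sU unconverted A and B, against 43.4 and 39.1 CPM in uridine A and B. Its log2 fold change was 0.22 ± 0.131 without the block (edgeR adjusted p = 0.715) and 0.22 ± 0.0607 with it (adjusted p = 0.0208). Leaving out any 1 of the 4 libraries ended the call, with adjusted p from 0.0982 to 0.201.

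Ctps had 245 and 222 CPM in 4sU unconverted A and B, against 282 and 262 CPM in uridine A and B, and the groups did not overlap. Its log2 fold change was -0.22 ± 0.117 without the block (edgeR adjusted p = 0.63) and -0.22 ± 0.0507 with it (adjusted p = 0.0061). The call remained without uridine A (adjusted p = 0.0344) and was lost without any of the other libraries, at an adjusted p of up to 0.109. Groups of 4 members did not overlap, 3 higher and 1 lower, at a background of 36.3% (16.9% higher and 19.5% lower).

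For the 8 members not called, the blocked 95% intervals give the size of difference between the 2 nucleosides that the data allow. They ran from -0.13 to 0.08 for Uck2, -0.08 to 0.14 for Umps, -0.10 to 0.15 for Cad and -0.18 to 0.17 for Dhodh on the log2 scale. For the transporters they ran from -0.04 to 0.28 (Slc29a1) and from -0.05 to 0.34 (Slc29a2), for Uckl1 from -0.06 to 0.30, and for Upp1 from -0.32 to 0.54.

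**Figure D3:**
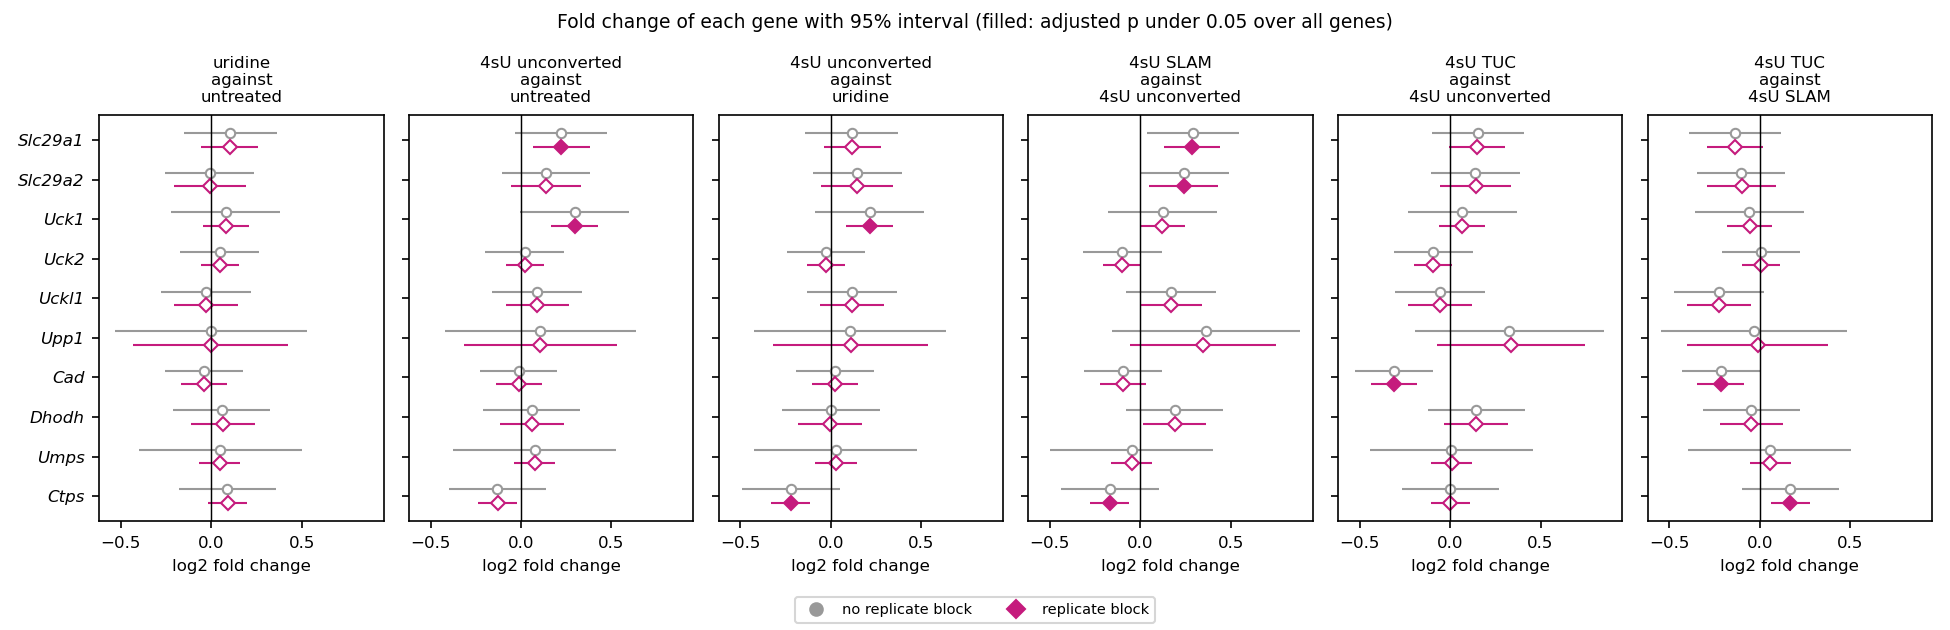
Log2 fold change (horizontal axis) with its 95% interval for each gene in the 6 comparisons, without (grey circles) and with (magenta diamonds) the replicate letter as a block, with filled symbols for an adjusted p under 0.05. No grey symbol is filled, and 10 magenta symbols are, 6 of them at positive and 4 at negative values.

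The conversion chemistries were compared with unconverted RNA of 4sU-treated cells, which asks whether the treatment of the RNA alters gene counts. In 4sU SLAM against 4sU unconverted, 0 members were called without the block, at a background of 0.344% of genes and 2284 genes with a p under 0.05 before adjustment. With the block, Slc29a1 and Slc29a2 were higher and Ctps lower, at a background of 20.0% of genes higher and 21.6% lower. Slc29a1 had 33.9 and 29.9 CPM in 4sU SLAM A and B, against 26.1 and 26.0 CPM in 4sU unconverted A and B. Its log2 fold change was 0.29 ± 0.11 without the block (edgeR adjusted p = 0.216) and 0.29 ± 0.0724 with it (adjusted p = 0.00482), and the call was lost without 4sU unconverted A (adjusted p = 0.1).

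Slc29a2 had 14.7 and 12.7 CPM in 4sU SLAM A and B, against 11.7 and 11.5 CPM in 4sU unconverted A and B. Its blocked log2 fold change was 0.24 ± 0.0902 (edgeR adjusted p = 0.0424, or 0.269 without the block, 0.0817 with library totals and the block, and 0.152 with DESeq2 and the block). It was kept without 4sU SLAM B (adjusted p = 0.00559) and lost without each other library, at 0.145 to 0.387. Ctps had 220 and 196 CPM in 4sU SLAM A and B, against 245 and 222 CPM in 4sU unconverted A and B. Its blocked log2 fold change was -0.17 ± 0.051 (edgeR adjusted p = 0.0142, or 0.465 without the block). It was lost without 4sU unconverted A (adjusted p = 0.0916) and without 4sU unconverted B (adjusted p = 0.128). Upp1 had 4.72 and 3.08 CPM in 4sU SLAM A and B, against 2.98 and 3.07 CPM in 4sU unconverted A and B, so that its difference lay in A. When 4sU SLAM B was left out of the blocked fit, 4sU SLAM A alone stood for its group. The log2 fold change was then 0.70 for Upp1, 0.27 for Uckl1 and -0.19 for Cad. With all libraries the blocked values were 0.35, 0.17 and -0.09. Groups of 8 members did not overlap, with 5 higher and 3 lower, against 43.4% of all genes (20.8% higher and 22.6% lower). Upp1 and Cad among them were separated only narrowly. Upp1 had 3.085 CPM in 4sU SLAM B against 3.074 CPM in 4sU unconverted B, and Cad had 220.2 against 220.9 CPM in the same libraries.

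In 4sU TUC against 4sU unconverted, 0 members were called without the block, at a background of 0% of genes (846 at an unadjusted p under 0.05, and 16 called by DESeq2). With the block, Cad alone was called, at a background of 14.2% of genes lower and 11.6% higher. Cad had 189 and 178 CPM in 4sU TUC A and B, against 235 and 221 CPM in 4sU unconverted A and B. Its log2 fold change was -0.31 ± 0.0933 without the block (edgeR adjusted p = 0.696) and -0.31 ± 0.0606 with it (adjusted p = 0.00228). The call was lost without 4sU unconverted A (adjusted p = 0.0628) and without 4sU TUC B (adjusted p = 0.0627). Groups of 5 members did not overlap, with Slc29a1, Slc29a2 and Upp1 higher and Uck2 and Cad lower. The groups of 37.2% of all genes did not overlap, with 18.4% higher and 18.9% lower. Ctps was level, at 246 and 221 CPM in 4sU TUC and 245 and 222 CPM in 4sU unconverted. The annotation places Atraid over part of Cad. Atraid moved the other way, with a blocked log2 fold change of 0.28 ± 0.0737 (edgeR adjusted p = 0.0116), and the part of shared reads was not tested.

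Between the chemistries, in 4sU TUC against 4sU SLAM, 0 members were called without the block, at a background of 0% of genes (1205 at an unadjusted p under 0.05, and 181 called by DESeq2). With the block, Ctps was higher and Cad lower, at a background of 10.0% of genes higher and 10.1% lower. Ctps had 246 and 221 CPM in 4sU TUC A and B, against 220 and 196 CPM in 4sU SLAM A and B. The blocked log2 fold change was 0.17 ± 0.051 (edgeR adjusted p = 0.0273, or 0.744 without the block), and the call was lost without 4sU TUC A (adjusted p = 0.148) and without 4sU TUC B (adjusted p = 0.145). Cad had 189 and 178 CPM in 4sU TUC A and B, against 206 and 220 CPM in 4sU SLAM A and B. Its blocked log2 fold change was -0.22 ± 0.0607 (edgeR adjusted p = 0.0188, or 0.507 without the block). It was kept only without 4sU SLAM A (adjusted p = 4.67e-05), with values of 0.095 to 0.183 without the others and 0.0501 with library totals and the block. Uckl1 had 16.4 and 16.6 CPM in 4sU TUC A and B, against 19.8 and 18.8 CPM in 4sU SLAM A and B, and was not called (edgeR adjusted p = 0.0657 with the block, or 0.0139 without 4sU SLAM B). Groups of these 3 members did not overlap, against 31.0% of all genes.

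Multiplying CPM by NTR splits each level into new and pre-existing RNA. The new Ctps RNA was 175 and 173 CPM in 4sU TUC A and B, against 149.1 and 149.5 CPM in 4sU SLAM A and B. Its pre-existing part was 70.6 and 48.4 CPM in 4sU TUC, against 70.6 and 46.4 CPM in 4sU SLAM. By these estimates the higher Ctps level of the TUC libraries lay in the part estimated as new. That placement rests on a mean NTR 0.0264 higher in 4sU TUC than in 4sU SLAM, a difference that was not called (limma adjusted p = 0.536 with the block). Whether the 2 parts differed unequally was not tested. For Cad, new RNA was 51.3 and 57.4 CPM in 4sU TUC, against 55.9 and 68.4 CPM in 4sU SLAM, and pre-existing RNA was 138 and 120.4 CPM in 4sU TUC, against 149.9 and 151.7 CPM in 4sU SLAM. Both parts of Cad were therefore lower in 4sU TUC in each letter.

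Pre-existing Slc29a2 RNA was 0.668 to 1.42 CPM over the converted libraries, where untreated cells held 10.5 CPM in all. Pre-existing Slc29a1 RNA was 18.1 to 24.7 CPM over the converted libraries, against a total of 22.4 CPM in untreated cells. The transporter pair thus differed in the part estimated as pre-existing. For Slc29a1 that part was 24.7 CPM in 4sU SLAM A, above the whole level of 22.5 CPM in untreated A. CPM are relative to the RNA of each library, so these values do not measure how much earlier RNA remained. New Uck2 RNA amounted to 147.6 to 158.6 CPM, and its whole level in untreated cells was 219.7 CPM.

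**Figure D4:**
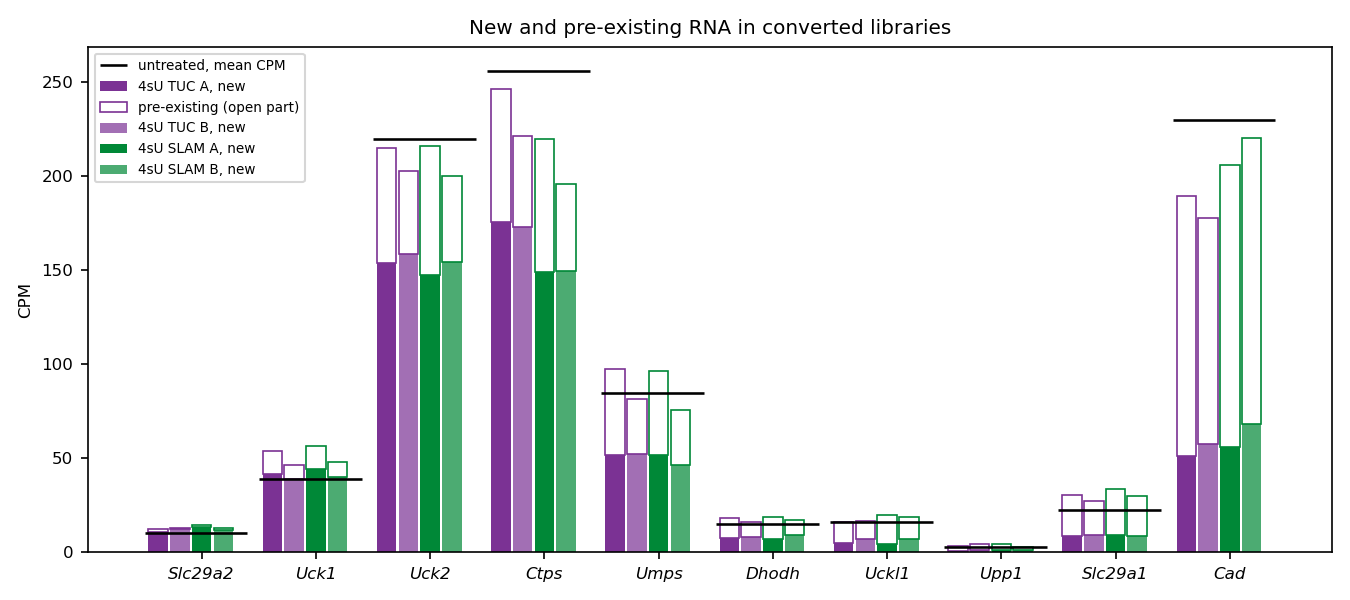
New RNA (filled, CPM times NTR) and pre-existing RNA (open) of each gene in the 4 converted libraries, stacked on a CPM axis from 0, with black lines at the untreated mean. Slc29a2 is nearly all filled, while Cad and Slc29a1 are mostly open.

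The other pyrimidine genes were followed by role, in a list of 48 genes of which 45 were in the table and 40 were tested. Without the block 0 of the 40 were called in each of the 6 comparisons. The genes named here are, in each comparison, those with the largest changes among called list genes with 10 CPM or more, all with the block. After uridine, 0 of 40 were called against untreated cells in that fit as well, with a median log2 fold change of 0.02 over the list and 0.00 over all genes.

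In 4sU unconverted against untreated, 2 list genes were higher and 2 lower of 40, at a background of 6.97% of all genes higher and 12.9% lower. Nme1, a nucleoside diphosphate kinase, was higher by 0.22 ± 0.061, and Dtymk, the thymidylate kinase, by 0.19 ± 0.0603. Cmas, which makes CMP-sialic acid, fell by 0.36 on the log2 scale, and Uap1, which makes UDP-N-acetylglucosamine, fell by 0.22. Against uridine, 2 were higher and 2 lower, at a background of 6.48% higher and 13.3% lower. There Cmas fell by 0.43 and Uap1 by 0.24, while Nme4 was higher by 0.28 and Nme1 by 0.18. The median of the list was 0.03 against untreated and 0.02 against uridine, with 0.01 for all genes in both.

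In 4sU SLAM against 4sU unconverted, 10 list genes were higher and 7 lower of 40, at a background of 20.0% of all genes higher and 21.6% lower. Tymp, thymidine phosphorylase, was higher by 0.65 ± 0.0715, with 47.2 and 35.7 CPM in 4sU SLAM A and B against 29.3 and 23.4 CPM in 4sU unconverted A and B. Tymp also had the highest SLAM NTR of the other pyrimidine genes, 0.893. The nucleotidase genes Nt5c3b and Nt5c were higher by 0.45 and 0.42. Pcyt1a, which makes CDP-choline from CTP, fell by 0.35, the lysosomal nucleoside transporter gene Slc29a3 fell by 0.26, and Dck, deoxycytidine kinase, fell by 0.24. The list's median was 0.05, the members' 0.15 and that of all genes 0.00.

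In 4sU TUC against 4sU unconverted, 12 list genes were higher and 3 lower of 40, at a background of 11.6% of all genes higher and 14.2% lower. Nt5c was higher by 0.36, Nme4 by 0.31 and Nme2 by 0.29, while Slc29a3 fell by 0.37 and Pcyt1a by 0.25. The list's median was 0.11, the members' 0.04 and that of all genes 0.01. In 4sU TUC against 4sU SLAM, 4 list genes were higher and 2 lower of 40, at a background of 10.0% of all genes higher and 10.1% lower. The higher ones included Cmpk1, the UMP-CMP kinase, by 0.27, Nme1 by 0.26 and Nme2 by 0.22, while Tymp fell by 0.49 and Nt5c3b by 0.23. Nme1 and Nme2 are close paralogues, and reads that both can share make their values uncertain.

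Some other related genes of the pathway also differed in NTR, and some lay close together. Ctps2, the second CTP synthase gene, had a SLAM NTR of 0.113 (percentile 2.71), and Ctps had 0.721 (percentile 63.3). Slc29a3 had 0.736, between Slc29a2 at 0.919 and Slc29a1 at 0.283. Rrm2, the small subunit of ribonucleotide reductase, had 0.743 and its large subunit gene Rrm1 0.304, while Rrm2b, the paralogue of Rrm2, had 0.600. Nearer each other were Pcyt1a at 0.616 and Pcyt2 at 0.511, Nme1 at 0.222 and Nme2 at 0.136, and Entpd4 at 0.321 and Entpd6 at 0.355. These genes were picked from the list after their values were seen.

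Over the 10 libraries the log2 CPM of Slc29a1 was most like that of P3h4 (Pearson r = 0.986), Slc39a1 (r = 0.986) and Pold4 (r = 0.981) among 8799 genes. Uck2 was most like Bcl2l13 (r = 0.967), Ccsap (r = 0.959) and Cep63 (r = 0.946). Between members, the correlations above 0.8 in size were those of Slc29a1 with Uck1 (r = 0.924), Slc29a2 (r = 0.899) and Dhodh (r = 0.800), of Slc29a2 with Upp1 (r = 0.902) and Uck1 (r = 0.816), of Uck1 with Dhodh (r = 0.847), of Uck2 with Ctps (r = 0.837) and of Uckl1 with Ctps (r = -0.860). These values describe 10 libraries that share treatment, letter and chemistry, and carry no test.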

How the data were processed

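RNA-seq of 10 NIH-3T3 libraries was analysed from 1 deposited table. Expected counts per gene and library, not scaled between libraries, were deposited by the authors, per the file headers and values; 24.8 to 30.3% of genes per library had a value that is not whole. A fraction between 0 and 1 was deposited for 8 libraries as a posterior mode with 0.05 and 0.95 quantiles (90% intervals), per the file headers, and is read here as the NTR because it lies near 0 without conversion. The authors also deposited a gene length, per the file headers, whose definition is not stated. The submitters' processing notes name cutadapt, Bowtie2 2.3.0 and STAR 2.7.10b. Not given in the sources used here are build, annotation, counter, strand setting and NTR tool. 24 per-library columns were not used. Overlaps between genes were read from RefSeq GRCm38.p6.

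Rounded counts past filterByExpr (12218 genes) were fitted with TMM factors by edgeR 4.0.16 under R 4.3.3, using its quasi-likelihood test and a single model of all 5 groups, with Benjamini-Hochberg adjustment over all genes and a threshold of 0.05. CPM are TMM-scaled. NTR was tested with limma 3.58.1 on log2(NTR/(1 - NTR)), held to 0.01 to 0.99, over 10202 genes with a mean of 100 or more counts in the 4 converted libraries. Scripts were tested on simulated data. Alternatives were DESeq2 1.42.0, library totals, other filters, fits on the compared groups, leaving out each library, and the letter as a block. What libraries of a letter share is not labelled. The letters were taken to pair them because A minus B differences correlated between all 10 pairs of groups (r 0.584 to 0.690 over 12218 genes), and the block lowered the common dispersion to 0.00195, against 0.0187 in its absence. Between A and B of a group, chi-square divided by its degrees of freedom was 38.4 to 78.1, above sampling noise.

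The members and lists were chosen with earlier results of these data known. Named genes were all members, up to 3 called list genes per direction and comparison with 10 CPM or more in the higher group (from the block fit where the other called none), and the 3 genes most correlated with Slc29a1 and with Uck2. Pairs named after their values were seen are marked as such.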

Additional observations from a re-analysis of the deposited data

Results flagged for a closer look

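In the libraries without conversion, 4 members had an NTR in both 4sU unconverted libraries above that in both uridine libraries, which lies outside the comparisons above. The mean was 0.0404 in 4sU unconverted against 0.00975 in uridine for Slc29a2, and 0.0256 against 0.0166 for Uck1. It was 0.0242 against 0.0187 for Dhodh and 0.0199 against 0.0097 for Umps. The 90% intervals of libraries of the same letter overlapped for all 4 genes. Among all 10202 genes, 45.1% had both 4sU libraries above both uridine libraries, so the members' count was near the share of all genes. Uckl1 went the other way, at 0.0022 and 0.005 in 4sU unconverted A and B against 0.0207 and 0.0219 in uridine. For Uck2 the groups overlapped, and the intervals were apart in B only. No test of these values was made.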

How the results depend on the processing

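Without the letter as a block, 0 members were called in the 6 count comparisons in edgeR and under each of DESeq2, library totals, no filter, a mean of 100 or more counts, fits on the compared groups and leaving out each library. With the replicate block, 0 members were called for uridine against untreated, 2 for 4sU unconverted against untreated, 2 for 4sU unconverted against uridine, 3 for 4sU SLAM against 4sU unconverted, 1 for 4sU TUC against 4sU unconverted and 2 for 4sU TUC against 4sU SLAM. Of all genes tested, the block fit called 0.00818%, 19.9%, 19.7%, 41.6%, 25.8% and 20.1% in the same order. Library totals, a count minimum and DESeq2 with the block were chosen after seeing the data. Library totals with the block gave the same counts except 1 for 4sU TUC against 4sU SLAM, but with Ctps (adjusted p = 0.0457) in place of Slc29a1 for 4sU unconverted against untreated and Uck2 (0.0383) in place of Slc29a2 for 4sU SLAM against 4sU unconverted, and a mean of 100 or more counts with the block gave the same counts in all 6. DESeq2 with the block gave 1 for 4sU unconverted against untreated and 2 for 4sU SLAM against 4sU unconverted, and the same counts elsewhere. Of 12218 genes, library totals with the block called 0, 2171, 2200, 4903, 2742 and 2239 in the same order. DESeq2 with the block called 0, 1937, 1852, 4086, 2412 and 1844 of them. The count minimum with the block called 0, 2520, 2529, 4985, 3203 and 2428 of 10232 genes. Leaving out 1 library in the block fit changed which members were called. Every log2 fold change called with the block kept its direction. For example, it ran from 0.28 to 0.31 for Uck1 in 4sU unconverted against untreated. For Cad it ran from -0.32 to -0.12 in 4sU TUC against 4sU SLAM. The log2 fold changes recomputed for members were set against the edgeR fit without the block, in which 0 members were called. Of them, 867 kept direction and stayed uncalled, 57 gained a call and 96 of those not called changed sign. No call could be lost in this count, so it does not measure how stable the calls made with the block were. Losses of those calls are given with each comparison above. Members called for NTR stayed at 0 under every alternative run, with 9 members tested at a mean of 200 or more counts. Over all genes, the block raised calls in each of the 6 comparisons, for example to 2432 for 4sU unconverted against untreated from 20 without it. Ordered by CPM in place of CPM per kb, Slc29a2 and Dhodh exchanged places. Upp1, at 82 to 137.5 counts, had the widest intervals, and counting error limits it most.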
